A study of Mus musculus with 6 samples.

Results

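The table compared sorted mouse oligodendroglial cells with and without a conditional deletion of Ep400, and 49 of its 48526 genes are described here. They are genes whose symbol is a name followed by -ps, here called named pseudogenes, with mitochondrial, H2 and histone symbols left out. A parent gene of that name was found for 34 of them, and not all are annotated as pseudogenes. A named pseudogene was a member when its mean normalised read count over all 6 libraries was at least 50 in the authors' deposited table. Of 1360 such names, 453 had a mean above 0. The members were thus chosen by that mean, a measured value, and it is given only as a description. The members nearest above the limit in the authors' deposited table were Nlrp1c-ps at 50.8, Oaz1-ps at 51.3 and Gstp-ps at 51.8, and the names nearest below it were Stk19-ps1 at 48.2, Glud-ps at 47.4 and Rpl28-ps1 at 47.1. Both group means were at least 50 for 41 members, 6 reached 50 in the ctrl group alone, and Mdm4-ps and Olfr1372-ps1 reached it in the Ep400 cko group alone, so these 8 owe their place to the group in which they are high.

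There were 3 libraries from Ep400 cko mice and 3 from ctrl mice, all at postnatal day 6 on a mixed 129SvJ/C57Bl/6J background. Ep400 cko mice carried CNP1::Cre, the conditional Rosa26stopflox-YFP reporter and conditional Ep400, and ctrl mice carried the same Cre and reporter without the conditional Ep400 allele. CNP1::Cre is active under the promoter of Cnp, a gene of oligodendroglial cells, so Cre was present in both groups. Cells were freed from meninges-free fore brain and sorted by YFP and Hoechst. Ep400 is the ATPase of a chromatin remodelling complex. How many animals went into a sample, and how much of each strain a sample carried, is not given in the labels or the table. The labels call the 3 samples of a group biological replicates.

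Pseudogenes are gene copies that have lost, or are thought to have lost, the protein-coding function of the gene they resemble. Processed pseudogenes arose when a spliced messenger RNA was copied into DNA and inserted elsewhere, so they lack introns and the parent's promoter, and highly transcribed housekeeping genes such as those of ribosomal proteins have left many of them. Unprocessed pseudogenes come from duplicated DNA and can keep exons and introns, and a unitary pseudogene is a gene that lost its function with no working copy beside it. A young copy differs from its parent at few bases, so a short read from either can match both.

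The following stretches of 120 bases show how close the copies are. Each was chosen as the gapless stretch inside the parent's coding sequence with the most differing bases, and is read 5′ to 3′ from the GENCODE M21 transcripts (GRCm38, the mm10 assembly), and capitals mark positions at which the sequences of a set differ. The first set is shown because Mdm4-ps had the largest difference from its parent. Mdm4-ps comes from chrX:128261777-128261896 on the plus strand and Mdm4 from coding base 389 onwards, with 13 differing bases.
Mdm4-ps: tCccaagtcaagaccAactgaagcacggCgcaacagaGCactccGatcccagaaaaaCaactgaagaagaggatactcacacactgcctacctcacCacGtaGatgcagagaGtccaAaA
Mdm4: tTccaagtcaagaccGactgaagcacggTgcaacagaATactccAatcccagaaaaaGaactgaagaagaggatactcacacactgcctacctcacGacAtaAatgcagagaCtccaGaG

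Oaz2-ps and Tdpx-ps1 are shown because they had the lowest fold changes of all members. Oaz2-ps lies at chr3:135525964-135526532 on the minus strand, in 2 exons, and its stretch has 4 differing bases from Oaz2, from coding base 176 onwards. Over its whole length, Oaz2-ps aligned to Oaz2 at 93.6% identity, with 9 mismatches and 27 gap bases that a gapless stretch cannot show. Tdpx-ps1 comes from chr1:99790906-99791025 on the minus strand. No gene named Tdpx is in the table, and its closest protein-coding transcript was Prdx2, shown from its start codon with 9 differing bases.
Oaz2-ps: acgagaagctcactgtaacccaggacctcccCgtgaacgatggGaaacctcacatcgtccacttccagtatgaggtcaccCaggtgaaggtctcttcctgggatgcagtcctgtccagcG
Oaz2: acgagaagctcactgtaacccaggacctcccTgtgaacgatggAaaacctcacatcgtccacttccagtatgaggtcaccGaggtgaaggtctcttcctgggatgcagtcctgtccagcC
Tdpx-ps1: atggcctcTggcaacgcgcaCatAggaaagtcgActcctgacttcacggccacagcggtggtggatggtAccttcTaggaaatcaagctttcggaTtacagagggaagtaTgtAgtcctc
Prdx2: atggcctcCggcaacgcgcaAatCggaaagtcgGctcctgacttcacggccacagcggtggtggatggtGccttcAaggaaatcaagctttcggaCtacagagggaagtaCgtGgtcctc

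The ribosomal sets show a copy pair on different chromosomes, a copy with few differences and a copy with none. Rps15a-ps6 (chr11:6172917-6173036, minus strand) had 2 differing bases and Rps15a-ps8 (chr4:53791337-53791456, minus strand) had 15 over the start of the Rps15a coding sequence. Rpl3-ps1 (chrX:13202572-13202691, plus strand) had 1 differing base over the start of Rpl3. Rps6-ps4 (chr2:75191703-75191822, minus strand) had 0 over the start of Rps6, so its stretch has no capitals.
Rps15a-ps6: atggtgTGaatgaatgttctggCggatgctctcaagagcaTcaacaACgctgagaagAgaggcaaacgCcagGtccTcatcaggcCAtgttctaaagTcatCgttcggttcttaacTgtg
Rps15a-ps8: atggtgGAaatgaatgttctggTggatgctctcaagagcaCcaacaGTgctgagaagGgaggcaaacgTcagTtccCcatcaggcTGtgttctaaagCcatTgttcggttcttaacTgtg
Rps15a: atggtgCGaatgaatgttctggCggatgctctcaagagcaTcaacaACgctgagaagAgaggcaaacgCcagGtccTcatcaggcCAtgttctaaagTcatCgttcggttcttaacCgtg
Rpl3-ps1: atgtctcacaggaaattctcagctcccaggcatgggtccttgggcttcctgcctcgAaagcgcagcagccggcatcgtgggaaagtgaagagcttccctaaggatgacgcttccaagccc
Rpl3: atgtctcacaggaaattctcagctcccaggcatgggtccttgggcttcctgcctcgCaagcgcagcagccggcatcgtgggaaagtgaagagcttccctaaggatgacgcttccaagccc
Rps6-ps4: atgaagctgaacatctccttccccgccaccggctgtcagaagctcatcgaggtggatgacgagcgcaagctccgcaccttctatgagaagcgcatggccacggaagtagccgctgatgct
Rps6: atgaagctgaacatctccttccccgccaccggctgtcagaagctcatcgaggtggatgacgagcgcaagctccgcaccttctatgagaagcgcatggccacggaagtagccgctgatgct

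The means in the authors' deposited table summed to 80407433 normalised reads, of which the members held 27156, and scale factors ran from 0.9674 to 0.9826 in Ep400 cko libraries and from 0.9711 to 1.1221 in ctrl libraries. Ep400 was at 0.01 ± 0.17 (SE, adjusted p = 0.975) in the authors' deposited table, and a count over the whole gene does not check a deleted part. Pdgfra and Olig2, which mark oligodendrocyte precursor cells (OPCs), had means of 19690 and 24363 in the authors' deposited table. The 5 OPC markers were all tested and none passed, with a median of -0.33, while 7 of 8 astrocyte markers and 3 of 3 red blood cell markers were higher, at medians of 1.08 and 0.98, and 4 of 5 mural markers and 3 of 4 microglia markers were lower, at medians of -1.31 and -0.60, in the authors' deposited table. Oligodendrocyte markers had a median of -0.85 by the authors' deposited table, with 5 of 5 values below 0 and 1 called lower. The part of these shifts in the pseudogenes' values was not tested. Fewer cells of a type and less RNA per cell cannot be told apart in these bulk samples.

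In Ep400 cko cells, 13 of the 49 named pseudogenes fell and 2 rose at an adjusted p under 0.05 in the authors' deposited table. Of all 20101 tested genes, 4.61% were called lower and 7.64% called higher there. Over the 15717 of them with a mean of at least 50, these shares were 5.57% and 8.79%. The shares among the members were 26.5% lower and 4.08% higher. They include Mdm4-ps, which rose, and Oaz2-ps, which fell, and each of these reached a mean of 50 only in the group where it is high. The members had a median log2 fold change of -0.42 in the authors' deposited table, against -0.01 over the tested genes with a mean of at least 50. Without the ribosomal copies, the median of the other 33 members was -0.17. Of 32 processed members, 12 fell and 1 rose, with a median log2 fold change of -0.60 in the authors' deposited table and 31 of 32 values below 0. Of 10 unprocessed members, 0 fell and 1 rose, and the median was 0.30 in that deposited table of the authors. None of 4 unitary or polymorphic members passed the test, with a median of 0.40 and a range of -0.28 to 0.73 by the authors' deposited table. The other 3 members are annotated as protein-coding (Ftl1-ps1 and Rpl9-ps6) or as a long non-coding RNA (Smkr-ps), and 1 of them fell.

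**Figure D1:**
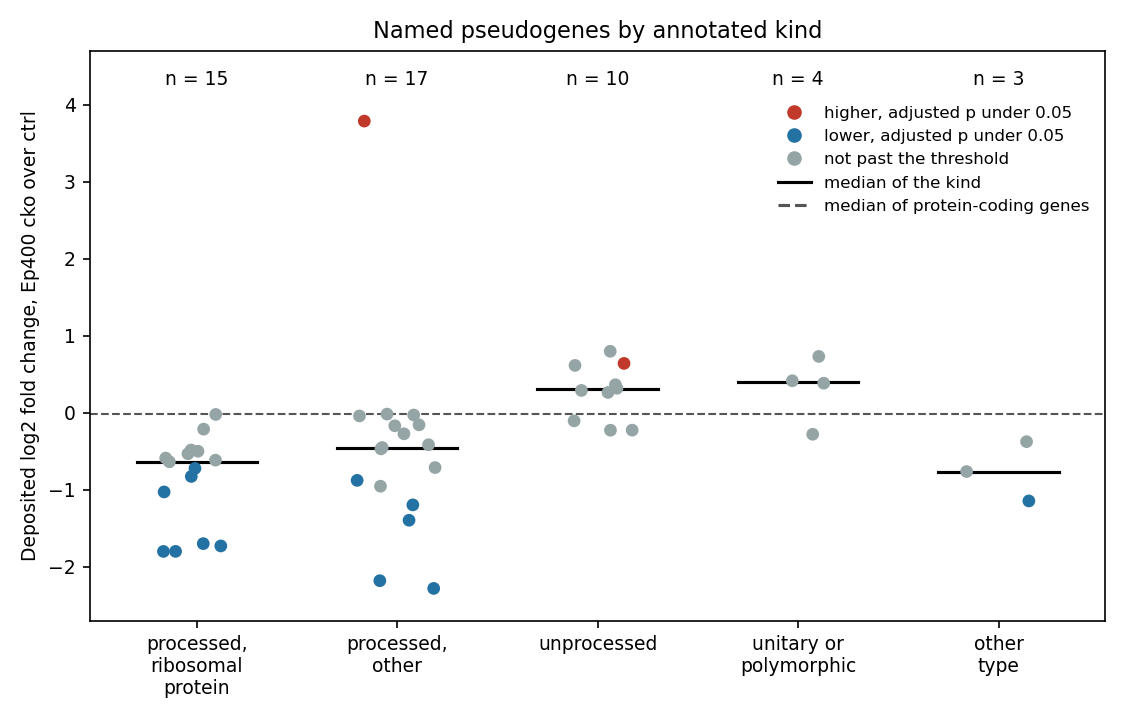
Deposited log2 fold change (y axis, Ep400 cko over ctrl) of each named pseudogene by its annotated kind, 1 point per pseudogene, with processed copies split into ribosomal and other, the median of each column as a line and the median of protein-coding genes dashed. Of 32 processed copies 31 lie below 0, and of 10 unprocessed copies 3 do.

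Processed pseudogenes outside the members give the nearest comparison. In the authors' deposited table, 180 processed pseudogenes with a mean of at least 50 carry other kinds of names, and 41 of them fell and 7 rose, with a median log2 fold change of -0.31. Protein-coding genes with a mean of at least 50 had a median of -0.02 by the authors' deposited table, with 790 lower and 1163 higher of 14260 tested. Of the 180 processed pseudogenes, 22.8% were lower and 3.89% higher, beside 37.5% and 3.12% of the 32 processed members, whose median was -0.60. Over all 49 members of every kind, 26.5% were lower and 4.08% higher. The shares were 5.54% and 8.16% of the protein-coding genes, and 5.57% and 8.79% of all tested genes with a mean of at least 50. The difference between these lists was not tested.

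A parent of the same name was in the authors' deposited table for 34 members, and these shared 31 parents. Of the 31 parents, Gpr137b and Mdm4 rose and Oaz2, Rpl9 and Rps6 fell, with a median log2 fold change of -0.33 in that deposited table of the authors. These are 6.45% higher and 9.68% lower, beside 7.64% and 4.61% of all tested genes. Among tested genes with a mean of at least 50, the shares were 8.79% and 5.57%. The pseudogene's value lay below its parent's in 25 of 34 pairs, with a median difference of -0.17. That median was -0.30 with log2 ratios of group means, which are not moderated, and -0.28 over the 29 pairs that are not identical in sequence. The 95% interval of the difference, from both standard errors taken as independent, left out 0 in 14 pairs, with the pseudogene below its parent in 11 and above it in 3. Both values of a pair come from the same libraries and their covariance is not known, so these intervals are a description. Of the 14 pairs with a called pseudogene, the parent was called too in 2, Mdm4 and Oaz2, each in its pseudogene's direction.

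**Figure D2:**
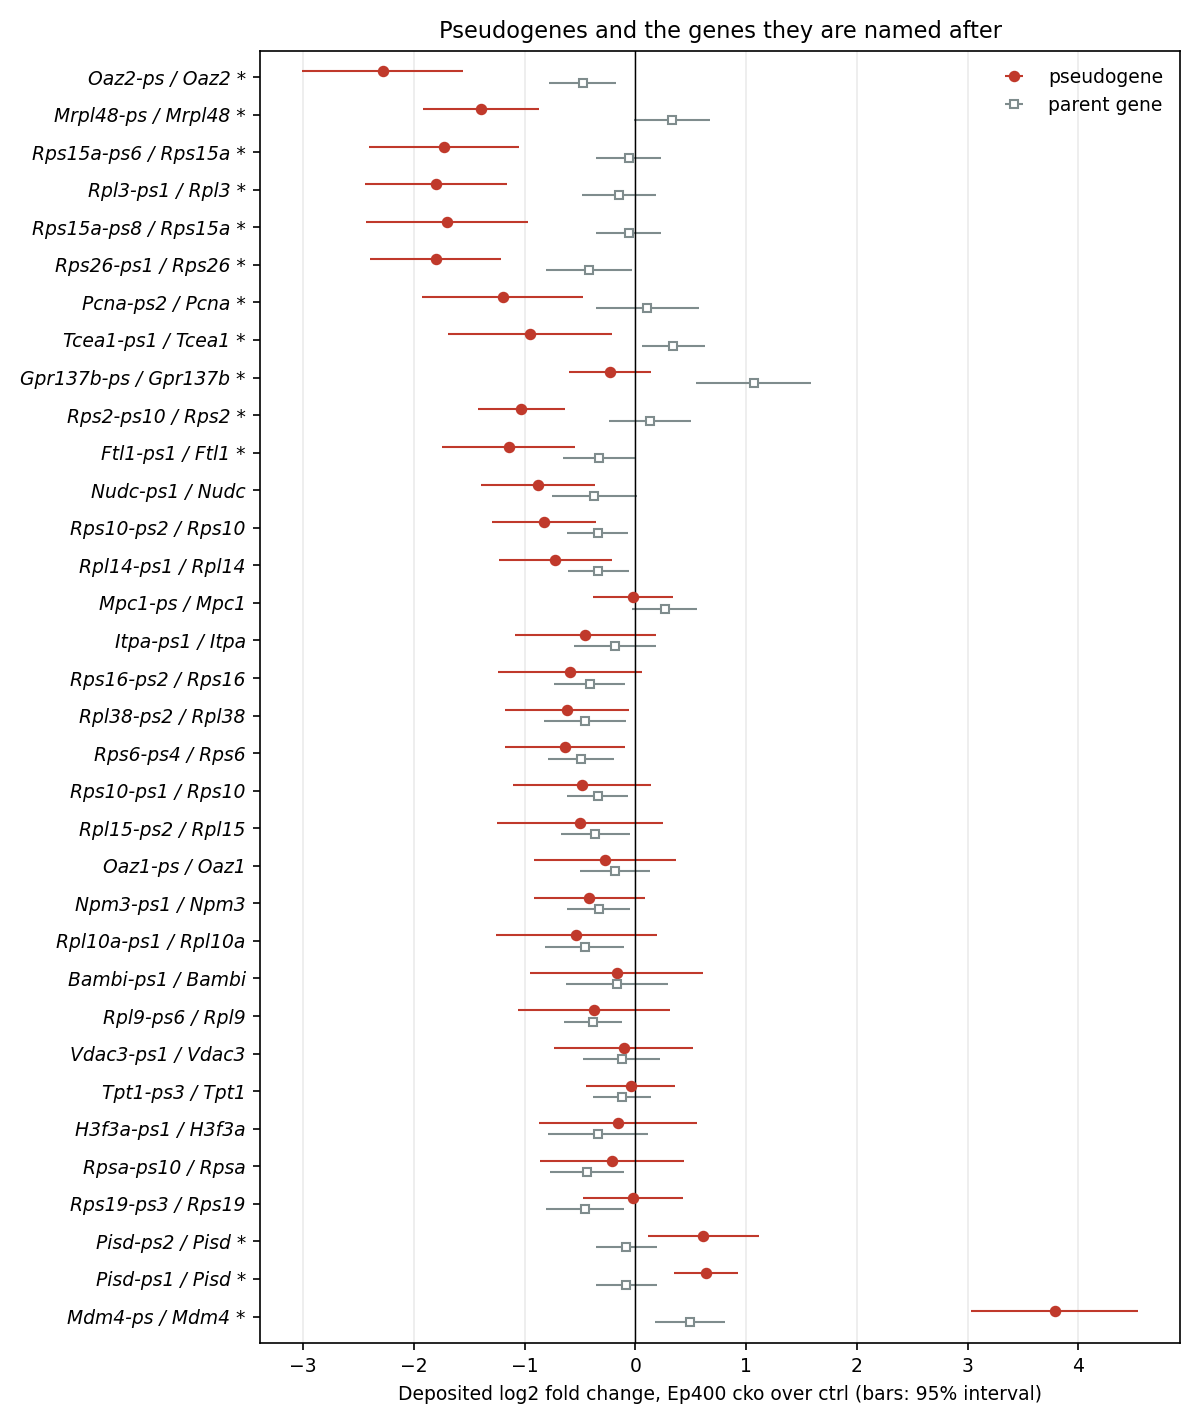
Deposited log2 fold changes (x axis, Ep400 cko over ctrl) of each pseudogene (filled circle, upper) and its parent (open square, lower) with 95% intervals, ordered by the difference. Asterisks mark the 14 pairs whose interval of the difference leaves out 0, from Oaz2-ps at -1.81 at the top to Mdm4-ps at 3.30 at the bottom.

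Whole reads per library could be worked out from the table for 45 members, and group means alone for the 4 with the highest means, so each group's libraries carry the letters a, b and c and reads are given in that order. In 16 of the 45, every Ep400 cko library lay below every ctrl library after scaling, and in 6 every one lay above. Among all 1792 genes with a mean of 50 to 150, 12.6% lay wholly below and 16.9% wholly above. Of the 22 members in that range, 6 lay wholly below and 1 wholly above. Of the 14 called members with reads, the groups were apart in 13 and overlapped in Pcna-ps2.

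**Figure D3:**
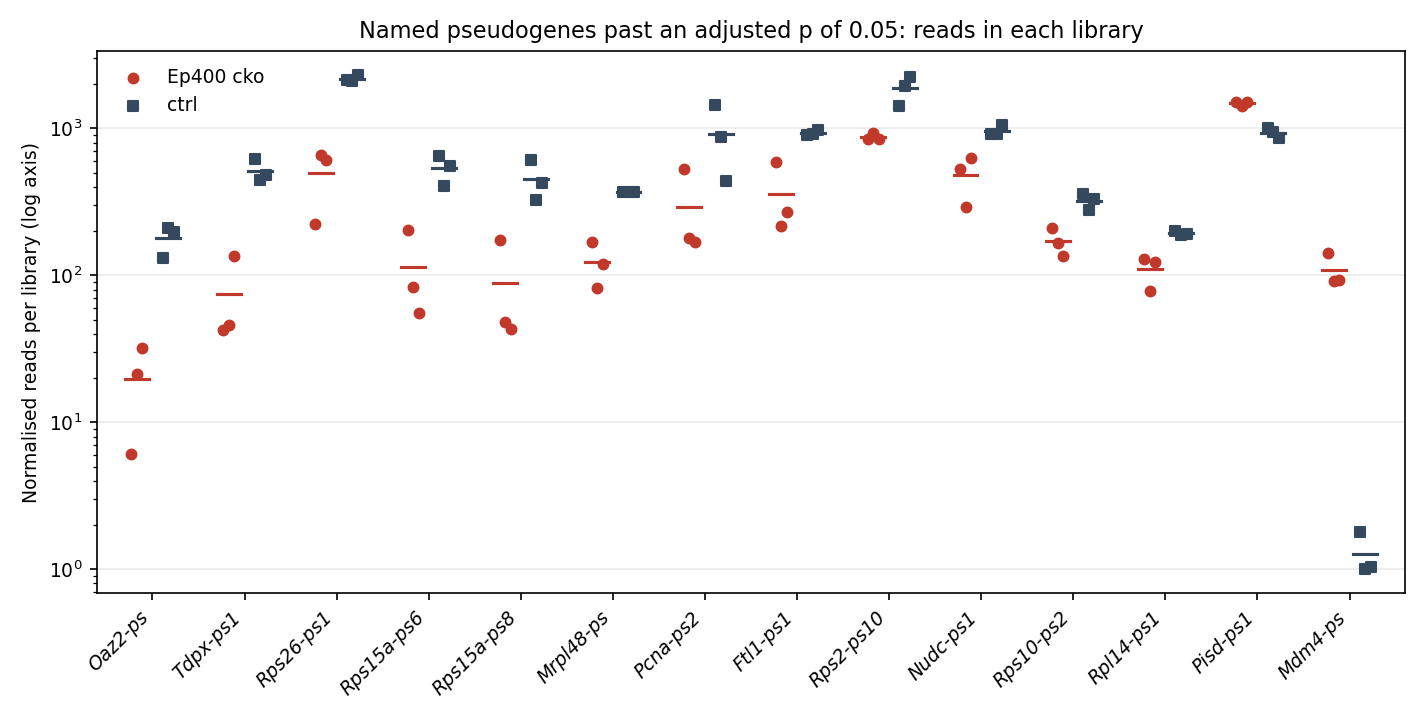
Normalised reads per library (y axis, log scale) of the 14 called members with reads, ordered by deposited log2 fold change, with Ep400 cko libraries as circles left of ctrl libraries as squares and the group mean as a line. Mdm4-ps has 1 or 2 reads in each ctrl library, and Pcna-ps2 is the case in which the groups overlap.

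Mdm4-ps, an X-linked processed copy, rose the most of all members. It is a member only through the Ep400 cko group, with group means of 109 normalised reads there and 1.27 in ctrl. It had 140, 90 and 90 reads in Ep400 cko libraries, against 2, 1 and 1 reads in ctrl libraries. All Ep400 cko libraries were thus far above all ctrl libraries, which held 4 reads together. The ratio of the summed reads, scaled for depth, was 84.3 with an exact counting interval of 32.6 to 311 that covers counting error only. The authors' deposited table gave a log2 fold change of 3.79 ± 0.38 (SE, adjusted p = 7.67e-20). Mdm4 itself, an inhibitor of p53, rose by 0.49 ± 0.16 (SE, adjusted p = 0.0262) by the authors' deposited table. The difference was 3.30, with a 95% interval of 2.48 to 4.11. The alignment to Mdm4 covered 62.9% of the copy at 94.1% identity, and 16.9% of its windows of 50 bases occur in Mdm4 transcripts. Within 500 kb of Mdm4-ps, 0 genes were tested.

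Pisd-ps1 and Pisd-ps2 are unprocessed copies of Pisd, the mitochondrial phosphatidylserine decarboxylase, on chromosomes 11 and 17. Pisd-ps1 had 1494, 1390 and 1456 reads in Ep400 cko libraries, against 1129, 933 and 837 in ctrl libraries, and the groups did not overlap. It rose by 0.64 ± 0.15 on the log2 scale (SE, adjusted p = 0.000731) in the authors' deposited table. Pisd-ps2 had 417, 421 and 399 reads in Ep400 cko libraries and 268, 184 and 352 in ctrl libraries, again with no overlap, but its log2 fold change of 0.61 ± 0.26 did not pass the test by the authors' deposited table (adjusted p = 0.0976). Pisd was at -0.08 ± 0.14 there (SE, adjusted p = 0.77, the authors' deposited table), and the differences were 0.72 (0.32 to 1.12) for Pisd-ps1 and 0.69 (0.12 to 1.27) for Pisd-ps2. Within 500 kb of Pisd-ps1, 5 of 18 tested genes were higher, 0 were lower and the median log2 fold change was 0.32 in the authors' deposited table. Of all tested genes 7.64% were higher. The part of the region in the copy's change was not tested. Without ctrl library c, Pisd-ps2 passed at 0.86.

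Copies of ribosomal protein genes made up 16 members, and 7 of them fell. All 16 had values below 0, with a median log2 fold change of -0.63 in the authors' deposited table. Of their 14 parents, 2 fell and 0 rose, with a median of -0.40 by the authors' deposited table. The genes for cytosolic ribosomal proteins as a whole were also mostly below 0, with a median of -0.41 and 19 of 78 lower and 1 higher in the authors' deposited table. The shares called lower were 43.8% of the copies, 14.3% of the parents and 24.4% of these genes. Among tested genes with a mean of at least 50, 5.57% were lower and 8.79% higher. The copies were not tested against the ribosomal protein genes as a group.

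Rps26-ps1, a copy of a small-subunit protein gene that overlaps Wwp2 on the opposite strand, had 220, 642 and 587 reads in Ep400 cko libraries, against 2382, 2077 and 2231 in ctrl libraries. Every Ep400 cko library lay well below every ctrl library, and library a of Ep400 cko was the lowest. The copy fell by 1.80 ± 0.30 on the log2 scale (SE, adjusted p = 4.84e-07) in the authors' deposited table, while Rps26 was at -0.42 ± 0.20 (adjusted p = 0.158). The difference was -1.38 (-2.09 to -0.67). Wwp2 was at -0.08 ± 0.14 (adjusted p = 0.766) by the authors' deposited table.

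Rpl3-ps1, a copy of a large-subunit protein gene on chromosome X, had group means of 833 normalised reads in Ep400 cko and 3874 in ctrl, worked out without reads per library. It differs from Rpl3 at 2 bases over its whole length, and 91.4% of its windows of 50 bases occur in Rpl3. Its log2 fold change was -1.80 ± 0.33 (SE, adjusted p = 4.76e-06) in the authors' deposited table, where Rpl3 was at -0.15 ± 0.17 (adjusted p = 0.639). The difference was -1.65 (-2.37 to -0.93).

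Both Rps15a copies, on chromosomes 11 and 4, fell while Rps15a, a small-subunit protein gene, was at -0.06 ± 0.15 (SE, adjusted p = 0.847) in the authors' deposited table. Rps15a-ps6 had 200, 82 and 54 reads in Ep400 cko libraries, against 732, 402 and 536 in ctrl libraries. Rps15a-ps8 had 171, 47 and 42 reads in Ep400 cko libraries, against 681, 325 and 414 in ctrl libraries. The groups did not overlap in either copy, and library a was the highest of its group in both copies and both groups. The reads of Rps15a-ps8 were 57.3% to 85.5% of those of Rps15a-ps6 in Ep400 cko libraries and 77.2% to 93% in ctrl libraries. The log2 fold changes were -1.73 ± 0.35 for Rps15a-ps6 (SE, adjusted p = 5.47e-05) and -1.70 ± 0.37 for Rps15a-ps8 (adjusted p = 0.000295) by the authors' deposited table. The differences from Rps15a were -1.67 (-2.41 to -0.93) and -1.64 (-2.43 to -0.85). Without Ep400 cko library a, the log2 ratio of group means, which is not moderated, moved to -2.94 for Rps15a-ps6 and to -3.31 for Rps15a-ps8, from -2.23 and -2.36. Over its length Rps15a-ps6 has 5 bases that differ from Rps15a and Rps15a-ps8 has 30, and 55.2% and 4.7% of their windows of 50 bases occur in Rps15a. Rps15a-ps6 lies within Nudcd3 on the same strand, and Nudcd3 was at -0.18 ± 0.13 (adjusted p = 0.422) by the authors' deposited table. Of 6 Rps15a copies tested at any mean, 3 fell, and the range was -1.73 to -0.11 in the authors' deposited table.

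Rps2-ps10, a copy of a small-subunit protein gene on chromosome 18, had 835, 908 and 825 reads in Ep400 cko libraries, against 1599, 1947 and 2174 in ctrl libraries. Its groups were apart, and the Ep400 cko libraries lay closer together than the ctrl libraries. It fell by 1.03 ± 0.20 on the log2 scale (SE, adjusted p = 3.49e-05) in the authors' deposited table, where Rps2 was at 0.13 ± 0.19 (adjusted p = 0.716), a difference of -1.16 (-1.70 to -0.62).

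Rps10-ps2 and Rpl14-ps1 fell by less, and their differences from the parents had intervals that held 0. Rps10-ps2 had 207, 164 and 132 reads in Ep400 cko libraries, against 401, 275 and 322 in ctrl libraries, with no overlap. Rpl14-ps1 had 128, 77 and 119 reads in Ep400 cko libraries, against 226, 188 and 186 in ctrl libraries, with no overlap. Their log2 fold changes in the authors' deposited table were -0.83 ± 0.24 (SE, adjusted p = 0.00921) and -0.72 ± 0.26 (adjusted p = 0.0469). Rps10, of the small subunit, and Rpl14, of the large subunit, were each at -0.34 ± 0.14 with an adjusted p of 0.0959 for Rps10 and 0.096 for Rpl14 in the authors' deposited table. The differences were -0.49 (-1.03 to 0.06) and -0.39 (-0.97 to 0.19). When a library was left out, Rpl14-ps1 no longer passed without Ep400 cko library b at -0.53 or c at -0.77, or without ctrl library a at -0.68, b at -0.72 or c at -0.71. Rps10-ps2 no longer passed without Ep400 cko library c, at -0.68. Rps10-ps1, the other Rps10 copy, was at -0.48 ± 0.32 by the authors' deposited table (adjusted p = 0.345).

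The other 9 ribosomal copies did not pass the test, and their log2 fold changes ran from -0.64 for Rps6-ps4 to -0.02 for Rps19-ps3 in the authors' deposited table. Parents that fell were Rps6 at -0.49 ± 0.15 (SE, adjusted p = 0.0155) and Rpl9 at -0.39 ± 0.13 (adjusted p = 0.0366) by the authors' deposited table. Their copies Rps6-ps4 and Rpl9-ps6 were at -0.64 ± 0.28 and -0.38 ± 0.35 in the same deposited table of the authors. Rps6-ps4 had 67, 61 and 63 reads in Ep400 cko libraries, against 98, 122 and 111 in ctrl libraries, with no overlap. Rpl38-ps2 had 310, 148 and 197 reads in Ep400 cko libraries and 323, 428 and 368 in ctrl libraries, and passed without Ep400 cko library a, at -0.87, against -0.62 ± 0.28 in the authors' deposited table.

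Processed copies of other genes gave 5 further falls. Oaz2-ps, a copy of the gene for ornithine decarboxylase antizyme 2, which restrains polyamine synthesis, had 6, 21 and 31 reads in Ep400 cko libraries, against 148, 208 and 193 in ctrl libraries. Ep400 cko libraries held 58 reads together and ctrl libraries 549, with no overlap. Oaz2-ps is a member only through the ctrl group, with group means of 19.9 normalised reads in Ep400 cko and 180 in ctrl. It fell by 2.28 ± 0.37 on the log2 scale (SE, adjusted p = 1.94e-07) in the authors' deposited table. Oaz2 fell as well, by 0.48 ± 0.16 (adjusted p = 0.0242) in the authors' deposited table, and the difference was -1.81 (-2.59 to -1.02). Oaz2-ps overlaps Manba on the opposite strand, which was at -0.06 ± 0.17 (adjusted p = 0.856) by the authors' deposited table.

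Tdpx-ps1 had 42, 45 and 131 reads in Ep400 cko libraries, against 691, 446 and 466 in ctrl libraries. The groups were apart, with Ep400 cko library c above the other 2 of its group. It fell by 2.18 ± 0.34 on the log2 scale (SE, adjusted p = 5.09e-08) in the authors' deposited table. Prdx2, a peroxiredoxin that reduces hydrogen peroxide and the closest coding gene at 96.3% identity, was at -0.29 ± 0.22 (adjusted p = 0.435) by the authors' deposited table. The difference was -1.89 (-2.69 to -1.10). Without Ep400 cko library c the log2 ratio of group means moved to -3.54, from -2.79. Tdpx-ps1 overlaps Cntnap5b on the opposite strand, which rose by 1.29 ± 0.32 (adjusted p = 0.00196) by the authors' deposited table.

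Mrpl48-ps, a copy of a gene for a protein of the mitochondrial ribosome, had 166, 80 and 116 reads in Ep400 cko libraries, against 413, 369 and 358 in ctrl libraries. Its groups were apart, and its ctrl values were nearly equal after scaling, at 369 ± 1.85 normalised reads (SD, n = 3), against 123 ± 43.8 in Ep400 cko (SD, n = 3). It fell by 1.40 ± 0.27 on the log2 scale (SE, adjusted p = 2.07e-05) in the authors' deposited table, while Mrpl48 was at 0.33 ± 0.18 (adjusted p = 0.213). The difference was -1.73 (-2.36 to -1.10).

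Pcna-ps2, a copy of the gene for the sliding clamp of DNA polymerase, had 521, 175 and 163 reads in Ep400 cko libraries, against 1610, 864 and 424 in ctrl libraries. Ep400 cko library a lay above ctrl library c, so the groups overlapped, and both groups spread widely. The log2 fold change was -1.20 ± 0.37 (SE, adjusted p = 0.0167) in the authors' deposited table, where Pcna was at 0.11 ± 0.24 (adjusted p = 0.823), a difference of -1.31 (-2.17 to -0.44). Pcna-ps2 no longer passed without Ep400 cko library b at -0.94 or c at -0.92, or without ctrl library a at -0.80, and its log2 ratio of group means was -2.40 without Ep400 cko library a, against -1.64 with all libraries.

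Nudc-ps1 and Ftl1-ps1 complete the falls. Nudc encodes a dynein-associated protein used in cell division, and Nudc-ps1 had 523, 286 and 611 reads in Ep400 cko libraries, against 1035, 907 and 1021 in ctrl libraries. Ftl1 encodes the ferritin light chain, which stores iron, and Ftl1-ps1 had 585, 214 and 260 reads in Ep400 cko libraries, against 1007, 906 and 943 in ctrl libraries. Neither copy's groups overlapped. The log2 fold changes in the authors' deposited table were -0.88 ± 0.26 (SE, adjusted p = 0.0123) for Nudc-ps1 and -1.15 ± 0.30 (adjusted p = 0.00408) for Ftl1-ps1. Nudc was at -0.37 ± 0.20 (adjusted p = 0.214) and Ftl1 at -0.33 ± 0.17 (adjusted p = 0.194) by the authors' deposited table. The difference was -0.51 (-1.15 to 0.14) for Nudc-ps1, an interval that held 0, and -0.82 (-1.50 to -0.14) for Ftl1-ps1. Without Ep400 cko library b neither passed, at -0.63 for Nudc-ps1 and -0.89 for Ftl1-ps1. Without Ep400 cko library a, the log2 ratio of group means of Ftl1-ps1 was -1.93, against -1.36 with all libraries.

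A further 3 members had intervals of the difference that left out 0 without passing the test themselves, among them Pisd-ps2. For Gpr137b-ps the parent moved and the copy did not pass. Gpr137b, which encodes a membrane protein of lysosomes, rose by 1.07 ± 0.27 (SE, adjusted p = 0.00175) in the authors' deposited table. Gpr137b-ps had 1081, 814 and 867 reads in Ep400 cko libraries and 1084, 1241 and 1089 in ctrl libraries, and the groups overlapped. Its log2 fold change was -0.23 ± 0.19 (adjusted p = 0.489) in the authors' deposited table, and the difference was -1.30 (-1.94 to -0.66). Gpr137b-ps shares only part of its length with the parent, since the alignment covered 22.4% of it.

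Tcea1-ps1, a copy of the gene for the transcription elongation factor TFIIS, had 17, 46 and 32 reads in Ep400 cko libraries, against 140, 64 and 56 in ctrl libraries. The groups did not overlap, but ctrl library a was well above the others. The log2 fold change was -0.95 ± 0.38 (SE, adjusted p = 0.0762) in the authors' deposited table, where Tcea1 was at 0.34 ± 0.14 (adjusted p = 0.0999), a difference of -1.30 (-2.09 to -0.50). It passed without Ep400 cko library b, at -1.10.

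The sequence likeness of 31 pairs, those in which the alignment covered at least 90% of the copy, was set beside the differences. In 5 pairs the copy was identical to its parent: Tpt1-ps3, Rpl38-ps2, Rps6-ps4, Rps16-ps2 and Rpl10a-ps1. None of these 5 passed the test, and their differences from the parents ran from -0.18 to 0.08. Tpt1-ps3, a copy of the gene for translationally controlled tumour protein, had 350, 353 and 357 reads in Ep400 cko libraries and 505, 350 and 307 in ctrl libraries, and the groups overlapped. Of 17 copies with 1 to 6 differing bases, 8 fell, and the differences ran from -1.67 to 0.22. Of 9 copies with more differing bases, 4 fell and 1 rose, and the differences ran from -1.81 to 0.72. All windows of 50 bases of the 5 identical copies occur in the parent, and how reads that match both were counted is not given in the labels or the table. Among tested genes with a mean of at least 50, 5.57% were lower and 8.79% higher, so 0 calls in 5 identical pairs says little. The likeness classes were not tested against each other.

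**Figure D4:**
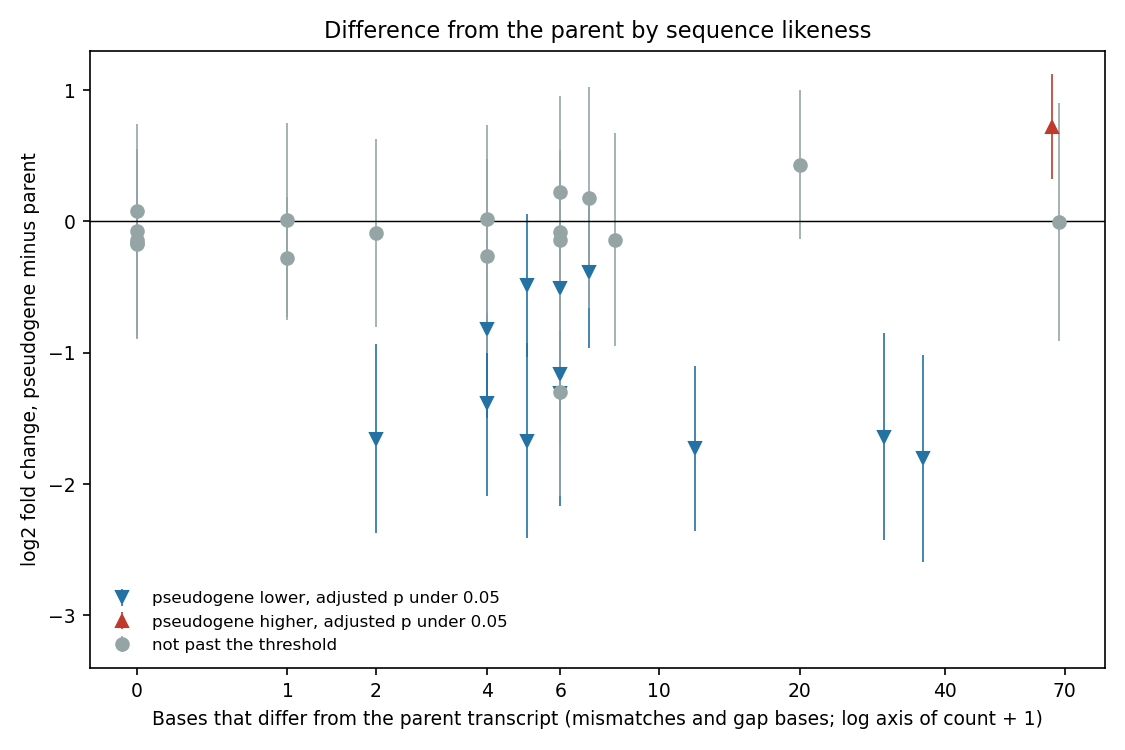
Difference in log2 fold change, pseudogene minus parent (y axis, with 95% intervals), against the number of bases that differ from the parent (x axis, log scale of count + 1) for 31 pairs. The 5 identical copies lie between -0.18 and 0.08, and called copies appear from 2 differing bases upwards.

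Dynlt1-ps1, Eif4a-ps4 and Gstp-ps have no parent of their name in the table but had a near-identical coding transcript. Dynlt1-ps1, a copy from the dynein light chain family, was identical over its length to Dynlt1a, Dynlt1c and Dynlt1f alike. It had 140, 107 and 140 reads in Ep400 cko libraries and 179, 97 and 144 in ctrl libraries, with a log2 fold change of -0.03 ± 0.28 (SE, adjusted p = 0.964) in the authors' deposited table. Eif4a-ps4 differs at 1 base from Eif4a1, an RNA helicase of translation initiation, and had 192, 182 and 136 reads in Ep400 cko libraries and 274, 161 and 347 in ctrl libraries. Its log2 fold change of -0.47 ± 0.29 did not pass (adjusted p = 0.318), while Eif4a1 fell by 0.52 ± 0.18 (adjusted p = 0.0386) in the authors' deposited table, a difference of 0.05 (-0.63 to 0.73). Gstp-ps, closest to Gstp2 of the glutathione S-transferase pi family, had 26, 49 and 30 reads in Ep400 cko libraries and 56, 77 and 74 in ctrl libraries. The groups overlapped. It was at -0.71 ± 0.35 (adjusted p = 0.173) and lies within Traf5 on the same strand, which was at -0.18 ± 0.17 (adjusted p = 0.538) by the authors' deposited table.

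Of the 4 members with the highest means, Rpl3-ps1 was a processed copy and the other 3 were unprocessed or unitary pseudogenes with 7 to 16 exons and no parent of their name in the table. Ppp4r1l-ps, named after a regulatory subunit of protein phosphatase 4, had group means of 4709 normalised reads in Ep400 cko and 3628 in ctrl, with a log2 fold change of 0.36 ± 0.15 (SE, adjusted p = 0.0918) in the authors' deposited table. Zfp862-ps, of the zinc finger family, had group means of 3589 in Ep400 cko and 4402 in ctrl and a log2 fold change of -0.28 ± 0.18 (adjusted p = 0.337) by the authors' deposited table. Tmem181b-ps had group means of 1854 in Ep400 cko and 1473 in ctrl and a log2 fold change of 0.32 ± 0.17 (adjusted p = 0.223) by the authors' deposited table. None of these passed the test, although Ppp4r1l-ps came within an adjusted p of 0.1.

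Ube2d-ps, of a family of ubiquitin-conjugating enzymes, had 1511, 1490 and 1614 reads in Ep400 cko libraries and 1668, 1130 and 1246 in ctrl libraries. After scaling for depth every Ep400 cko library lay above every ctrl library, but the log2 fold change was 0.26 ± 0.17 (SE, adjusted p = 0.323) in the authors' deposited table. Slc2a4rg-ps had 1331, 1082 and 997 reads in Ep400 cko libraries and 1116, 678 and 862 in ctrl libraries, again apart after scaling, with 0.41 ± 0.21 (adjusted p = 0.179) by the authors' deposited table. Cdk3-ps, annotated as polymorphic, named after a cyclin-dependent kinase, had 282, 266 and 256 reads in Ep400 cko libraries and 267, 211 and 162 in ctrl libraries, with 0.38 ± 0.22 (adjusted p = 0.262) by the authors' deposited table. All 3 thus had groups apart without passing.

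Zfp133-ps, of the zinc finger family, had 190, 318 and 277 reads in Ep400 cko libraries and 232, 103 and 128 in ctrl libraries, with an overlap through ctrl library a. Its log2 fold change of 0.73 ± 0.30 did not pass (adjusted p = 0.0868) in the authors' deposited table, and it passed without ctrl library a, at 0.97. Olfr1372-ps1, of the olfactory receptors, had 50, 116 and 136 reads in Ep400 cko libraries and 88, 23 and 34 in ctrl libraries, and the groups overlapped. The authors' deposited table gave it 0.80 ± 0.39 (SE, adjusted p = 0.171). Smkr-ps had 86, 27 and 51 reads in Ep400 cko libraries and 75, 121 and 157 in ctrl libraries, with -0.76 ± 0.37 (adjusted p = 0.173) by the authors' deposited table. The groups overlapped in all 3.

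Mpc1-ps, a copy of the gene for a mitochondrial pyruvate carrier subunit, stood nearly level, with 474, 470 and 487 reads in Ep400 cko libraries and 493, 466 and 560 in ctrl libraries. Its log2 fold change was -0.02 ± 0.18 (SE, adjusted p = 0.967) in the authors' deposited table, with a 95% interval of the difference from Mpc1 of -0.75 to 0.19. The remaining 8 members with no call had log2 fold changes from -0.45 for Itpa-ps1 to 0.29 for Slfn10-ps in the authors' deposited table, and the interval of the difference held 0 for the 6 of them with a parent in the table. Itpa-ps1, a copy of the inosine triphosphatase gene, overlaps Ttc17 on the same strand, which was at 0.39 ± 0.15 (adjusted p = 0.0631) by the authors' deposited table. Itpa-ps1 had 57, 34 and 42 reads in Ep400 cko libraries, against 66, 78 and 61 in ctrl libraries, and the groups were apart after scaling. Npm3-ps1, named after a member of the nucleoplasmin family, had 98, 86 and 85 reads in Ep400 cko libraries, against 127, 119 and 143 in ctrl libraries, also apart. Bambi-ps1, a copy of the gene for a pseudoreceptor of TGF-beta signalling, had 52, 83 and 112 reads in Ep400 cko libraries and 83, 34 and 190 in ctrl libraries, with an overlap, and its log2 ratio of group means was 0.64 without ctrl library c, against -0.26 with all libraries. Vdac3-ps1, Oaz1-ps and Slfn10-ps overlapped too, at -0.11, -0.27 and 0.29 in the authors' deposited table. H3f3a-ps1, a copy of a histone H3.3 gene, was at -0.16 ± 0.36 and H3f3a at -0.34 ± 0.23 in the authors' deposited table, and the copy's log2 ratio of group means was 0.11 without Ep400 cko library c, against -0.21 with all libraries. Nlrp1c-ps, of the inflammasome sensors, ranged from 26 to 70 reads in Ep400 cko libraries and from 25 to 93 in ctrl libraries, so the spread within groups was wider than the shift between them, and its log2 ratio of group means was 0.19 without ctrl library b, against -0.36 with all libraries.

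The surroundings of the called members were looked at as well. Of 263 tested genes counted within 500 kb of the 15 called members, 9.51% were called in either direction, against 12.2% of all tested genes in the authors' deposited table. Around the 13 members that fell, the median log2 fold change of tested neighbours lay between -0.17 and 0.78 in the authors' deposited table, and the highest of these medians rests on 1 gene. In all, 13 members overlap a gene with a mean of at least 50, 3 on the same strand and 10 on the opposite strand. Overlap was taken over whole genes, introns included, and shared exons were not checked. Whether counting used the strand is not given in the labels or the table. How far reads of such members and their partners were mixed is thus not known.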

How the data were processed

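RNA-seq libraries of 3 Ep400 cko and 3 ctrl samples were analysed from the authors' deposited table of their comparison, which holds 0 columns of values per sample. STAR 2.5.1, HTSeq and DESeq2 with the build mm10 are named in the submitters' processing notes, with no roles, and gene IDs are of Ensembl 85 per the file headers. Settings for strand and for reads with several matches are not given in the sources used here. The authors' mean is a signal, and its header speaks of raw counts. Of the means above 0, 0 equalled whole reads averaged over 6 libraries, so the mean was taken as a read count scaled per library. Fold changes in the authors' table are log2 values drawn towards 0 by moderation, as are their standard errors. The authors' score is the Wald statistic, and the deposited p-value and adjusted p-value (Benjamini-Hochberg, over genes with a mean of at least 6.1) follow from it. The direction, Ep400 cko over ctrl, is stated by the table's name alone.

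Whole reads per library were worked out from the means. Each of 6 libraries adds its reads, times a fixed amount per read, to a gene's mean, and these amounts come from genes that hold a single read. The amounts were refined and checked on 600 genes, all solved by exactly 1 set of reads, and 0 of 300 shifted means had a solution. At every mean, the sets kept for members had also to give the deposited fold change at the deposited standard error. From a mean of 400 the gap allowed was 2e-06, and a spread like that of other solved genes was required. In simulated data, 200 of 200 genes with a mean of 50 to 400 and 9 of 10 with a mean of 400 to 1500 were solved, all with the right reads. For 4 members above 1500 only group means were taken from the fit, a method that missed the log2 ratio of the 45 solved members by at most 0.014. A library's group follows from the sign of the authors' fold change of genes read in it alone, and the names a, b and c follow falling scale factors, so they match no replicate number in the labels. Intervals of reads cover counting error only. With 3 against 3 libraries a permutation test cannot go below p = 0.1, so no test of reads per library was run.

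Coordinates, gene types and transcripts were those of GENCODE M21 (mm10), which held 48144 of the 48526 IDs. Copies were aligned to protein-coding transcripts with blastn 2.17.0 on the same strand. A member without a named parent was set beside the closest transcript at 95% identity or more over at least 50% of its length. Values were computed with Python 3.11.15, numpy 2.4.6 and scipy 1.17.1. Named are the called members, the 10 highest means, the 10 largest fold changes, the pairs whose interval leaves out 0, the names nearest the limit and their parents. Other members were named after their values were seen. The members and lists were chosen with earlier results of these data known.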

Additional observations from a re-analysis of the deposited data

How the results depend on the processing

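The 13 falls among the named pseudogenes stayed within 10 to 15 when the filter on low values, the adjusted p threshold or the limit on the mean was changed. The 2 rises became 5 at an adjusted p threshold of 0.1 and 1 with a limit of 100 on the mean. Without the filter on low values Rpl14-ps1 was no longer called. Counts of called parents stayed at 2 to 3 per direction. With a correlation of 0.5 between the errors of a pair, 13 intervals lay below 0 and 4 above, against 11 and 3, the additions being Nudc-ps1, Rps10-ps2 and Rps19-ps3. The median log2 fold change of the members was -0.31 with the trend in transcript length and GC content removed and -0.17 without ribosomal copies, against -0.42, and that of the parents was -0.12 without ribosomal genes, against -0.33; the cause was not tested. The median difference from the parent was -0.30 with ratios that were not moderated and -0.28 without identical pairs, against -0.17.

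With each library left out in turn, an alternative chosen after seeing the data for the calls, 9 to 13 of the members with reads were lower, against 12, and 2 to 3 were higher, against 2. The same moderated fit was used at the deposited dispersion, with the largest p called in the table, 0.00612, as the limit. Members wholly below ctrl numbered 16 to 24, against 16, and wholly above 6 to 9, against 6, since fewer libraries separate more easily. Of 270 log2 ratios recomputed, 267 moved by less than the spread between libraries. That count says little, because leaving out 1 of 3 libraries can hardly move a group mean by more than this spread. Of the 84 ratios of called members, 0 changed sign. For 13 of the 14 called members with reads this was fixed in advance, since leaving out a library cannot reverse groups that lie apart. Among the rest, 11 ratios of 8 members without a call changed sign. Examples were Bambi-ps1, at 0.64 without ctrl library c against -0.26, and Nlrp1c-ps, at 0.19 without ctrl library b against -0.36. The table as a whole could not be refitted without a library, and no value without a library could be had for the 4 members with group means alone, Rpl3-ps1 among them. No paired analysis was possible because the deposited values carry no replicate numbers. Depth limits Mdm4-ps in ctrl and members with few reads.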

Other observations

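Of 117 named pseudogenes with a tested mean under 50, 4 fell and 1 rose in the authors' deposited table, with a median log2 fold change of -0.23. These are 3.42% lower and 0.855% higher, neither above the 4.61% and 7.64% of all tested genes. Rpl31-ps15, a copy of a large-subunit ribosomal protein gene, had 1, 2 and 1 reads in Ep400 cko libraries, against 31, 31 and 36 in ctrl libraries, and fell by 2.15 ± 0.41 (SE) on the log2 scale in the authors' deposited table, where Rpl31 was at -0.35 ± 0.16. Rps15a-ps5, another Rps15a copy that fell, had 14, 9 and 9 reads in Ep400 cko libraries, against 72, 70 and 31 in ctrl libraries. Rpsa-ps11 had 15, 16 and 17 reads in Ep400 cko libraries, against 34, 51 and 58 in ctrl libraries, and it was the 1 that fell of 8 tested Rpsa copies. Kifc5c-ps had 4, 1 and 0 reads in Ep400 cko libraries, against 15, 16 and 21 in ctrl libraries. In all 4 the groups were apart.

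Pdxk-ps, an unprocessed copy of the pyridoxal kinase gene, was the 1 that rose. It had 47, 43 and 45 reads in Ep400 cko libraries, against 6, 12 and 0 in ctrl libraries, with a log2 fold change of 1.45 ± 0.42 (SE) in the authors' deposited table, where Pdxk was at -0.31 ± 0.18. These 5 were chosen after their values were seen.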
